A study of Mus musculus with 8 samples.

Results

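The genes described here are 9 genes that mark B lymphocytes, namely Cd79a, Cd79b, Ms4a1, Pax5, Cd22, Ighm, Ighd, Igkc and Cr2, out of 39056 genes listed in the deposited counts. They were chosen by name, and Ensembl identifiers without their version were matched to mouse symbols. The study compared hearts of HVCN1 null mice with hearts of wild-type (WT) mice to find what deletion of the proton channel HVCN1 does to the cardiac transcriptome. All mice were male and 3 months old, with C57BL/6 named as the background, and each of the 4 HVCN1 null hearts (hearts 1 to 4) and 4 WT hearts (hearts 5 to 8) gave 1 library of poly-A RNA. The null allele is given as a gene knockout with no tissue named to which it is limited. The RNA came from heart tissue with the blood and immune cells it held, and a lower value can mean fewer cells of a type or less RNA per cell, which cannot be told apart here.

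B lymphocytes carry an antigen receptor made of a membrane immunoglobulin and a signalling pair, CD79A and CD79B. Naive B lymphocytes show IgM and IgD, whose heavy chains end in the constant regions encoded by Ighm and Ighd, joined to a light chain that is mostly kappa (Igkc) in the mouse. The receptor is tuned by co-receptors such as CD22, which dampens the signal, and CD21 (Cr2), a complement receptor that raises it. The factor PAX5 holds the cells in the B lineage. HVCN1 is found in B lymphocytes, where it accompanies the antigen receptor and sustains the oxidants that help its signal, and in phagocytes. The 9 genes were therefore also set beside Hvcn1 in the WT hearts.

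Total counts lay between 25851255 and 38874640 per heart. The 8 cardiac muscle markers, among them Myh6 and Tnnt2, summed to between 58595 and 76727 CPM (counts scaled to a common library total) in every heart, so the libraries carried the tissue they were labelled with. Library totals were scaled by edgeR's TMM method. The hearts were unlike in content: the 6 atrial markers summed to between 86.7 and 8462 CPM, and the 7 erythrocyte markers to between 1292 and 15224 CPM. Hvcn1 had 6, 6, 1 and 3 counts in HVCN1 null hearts 1 to 4, against 102, 49, 99 and 68 counts in WT hearts 5 to 8. Its log2 fold change, HVCN1 null over WT, was -4.20 (SE 0.38, edgeR quasi-likelihood adjusted p = 3.63e-04, exact permutation p = 0.0286). The 16 counts in HVCN1 null hearts fell on a gene that shares 1574 of its 3563 exon bases (44.2%) with Tctn1 on the opposite strand, and the strand setting of the counting is not given in the sources used here.

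The promoters of the members are shown as a description, and their part in the levels was not tested. RefSeq's table for GRCm38.p6 held 4 of the 9, each from 250 bases before to 50 bases after the start that RefSeq gives the gene. This start differs from the GENCODE gene bounds given further on: it lies 116 bases inside them for Cd79a and 1314 bases inside them for Cd22, and 3 bases outside them for Cr2, so the Cd22 window lies wholly inside the GENCODE gene. Those of Cd79a (chr7:24897247-24897546, + strand), Cd22 (chr7:30878979-30879278, − strand) and Cr2 (chr1:195176670-195176969, − strand) are printed on the gene's own strand, with matches to a searched motif in capitals.
Cd79a: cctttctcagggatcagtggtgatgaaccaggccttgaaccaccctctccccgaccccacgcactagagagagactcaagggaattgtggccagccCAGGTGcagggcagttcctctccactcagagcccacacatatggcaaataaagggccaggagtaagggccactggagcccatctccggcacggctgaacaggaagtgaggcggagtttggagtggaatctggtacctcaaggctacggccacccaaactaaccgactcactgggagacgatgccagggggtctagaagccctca
Cd22: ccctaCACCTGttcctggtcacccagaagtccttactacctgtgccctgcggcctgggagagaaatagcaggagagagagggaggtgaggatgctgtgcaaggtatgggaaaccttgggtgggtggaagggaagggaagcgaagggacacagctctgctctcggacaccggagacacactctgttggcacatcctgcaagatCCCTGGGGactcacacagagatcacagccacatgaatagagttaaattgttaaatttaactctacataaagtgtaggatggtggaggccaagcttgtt
Cr2: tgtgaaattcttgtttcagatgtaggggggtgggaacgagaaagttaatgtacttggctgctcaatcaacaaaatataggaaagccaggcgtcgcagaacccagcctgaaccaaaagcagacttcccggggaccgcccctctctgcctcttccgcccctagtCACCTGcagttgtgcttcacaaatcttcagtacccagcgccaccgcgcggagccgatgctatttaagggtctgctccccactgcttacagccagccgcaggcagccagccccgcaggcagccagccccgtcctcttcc
The motifs, searched on both strands, were those of factors that act in B lymphocytes: the EBF1 core CCCNNGGG, the E-box CAGGTG, the octamer ATGCAAAT and the PU.1 motif GAGGAAGT. The E-box was found 154 bases before the RefSeq start of Cd79a, 245 before that of Cd22 and 88 before that of Cr2, and 20.2% of the 32851 promoters in the table hold it. The EBF1 core was found 48 bases before the RefSeq start of Cd22 and is held by 13.7% of all promoters. The Pax5 window held none of the 4 motifs. Its RefSeq start lies 207 bases outside the GENCODE gene bounds, so that window lies wholly outside them. The octamer, in 1.74% of all promoters, and the PU.1 motif, in 3.2%, were found in none of the 4 windows. A match is a description of the letters and not a binding site.

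None of the 9 B lymphocyte genes was a differentially expressed gene (DEG) between HVCN1 null and WT hearts. All 9 passed the filter on low counts, and edgeR's quasi-likelihood test called 0 of them at an adjusted p under 0.05, where 1.14% of the 14796 tested genes were called, 0.743% as higher and 0.399% as lower in HVCN1 null hearts. The number was also 0 at an unadjusted p under 0.05, against 11% of all tested genes, and DESeq2, limma's voom and the exact and likelihood ratio tests of edgeR called 0 of the 9. Of all tested genes DESeq2 called 3.15%, voom 0.994%, the exact test 2.48% and the likelihood ratio test 2.54%. For 7 genes the log2 fold change was above 0 and for 2 it was below, but 5 of the 7 fell below 0 with voom and all 7 did without HVCN1 null heart 4. The median was 0.10, and that over all tested genes was -0.01. In no member did the groups lie apart, as they did in 7.06% of all tested genes. The members' summed counts were 1117, 567, 939 and 2034 in HVCN1 null hearts 1 to 4, against 1811, 703, 1323 and 956 in WT hearts 5 to 8. As CPM these sums were 35.4 ± 17.3 and 33.7 ± 9.90 (SD, n = 4 each), a ratio of 1.05. HVCN1 null heart 4 was the highest of the 8 and HVCN1 null heart 2 the lowest, so that the WT hearts lay inside the range of the HVCN1 null hearts. Without HVCN1 null heart 4 the ratio was 0.8345, which turned it below 1.

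**Figure D1:**
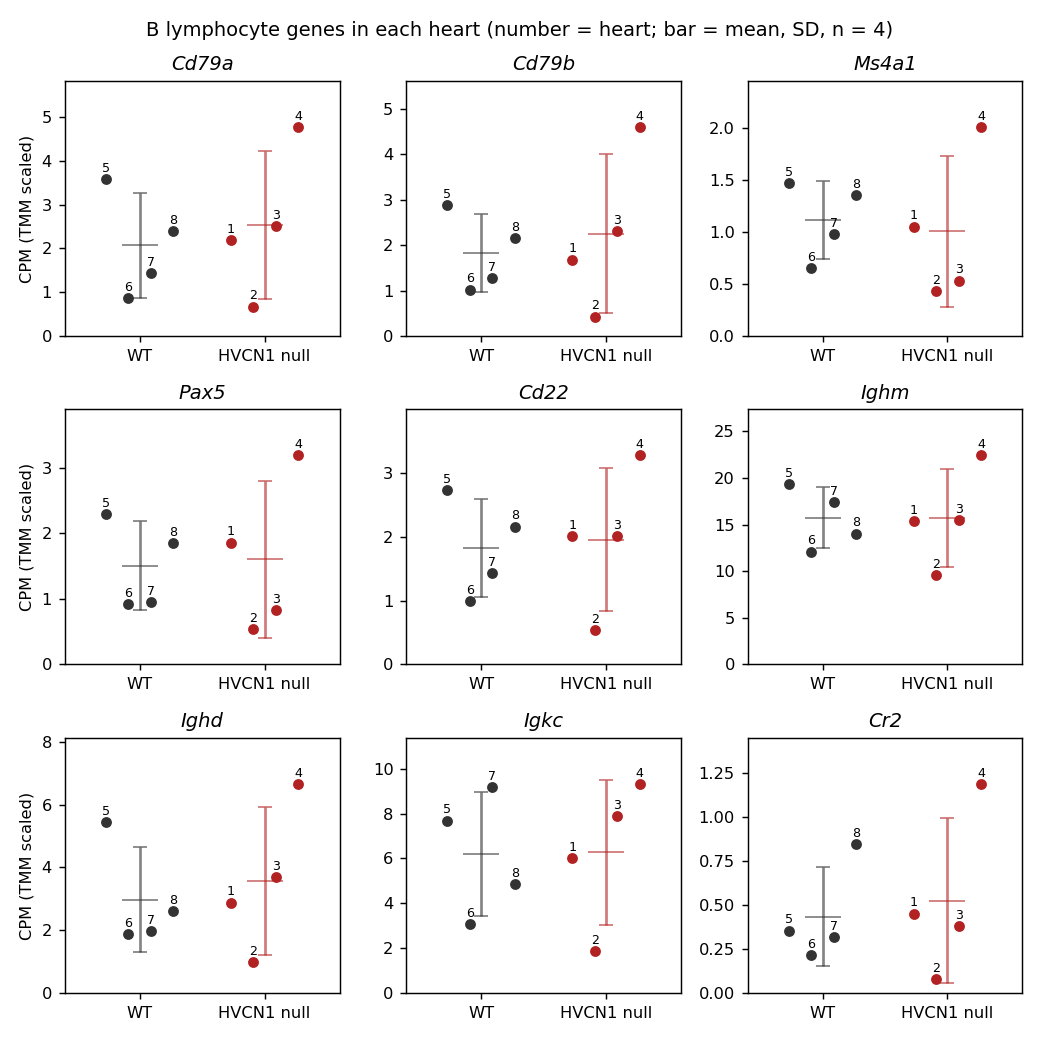
CPM (TMM scaled) of each of the 9 B lymphocyte genes in the 4 WT hearts and the 4 HVCN1 null hearts, 1 point per heart with its number, with the mean and SD of each group. HVCN1 null heart 4 is the highest and heart 2 the lowest of the HVCN1 null hearts in all 9 panels, and the groups overlap in all 9.

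The signalling pair of the antigen receptor was low and uneven. Cd79a (ENSMUSG00000003379, chromosome 7, 24897381 to 24902197 in GRCm38) had 73, 25, 66 and 169 counts in HVCN1 null hearts 1 to 4, against 142, 28, 54 and 71 counts in WT hearts 5 to 8. By CPM, HVCN1 null heart 4 stood 7.14-fold above heart 2 and WT heart 5 stood 4.15-fold above heart 6. The 95% Poisson interval of the 25 counts ran from 16.2 to 36.9 and that of the 169 counts from 144 to 196, both covering counting error only. Group means were 2.53 ± 1.69 CPM for HVCN1 null and 2.07 ± 1.20 CPM for WT (SD, n = 4 each). The log2 fold change was 0.29 (SE 0.54, 95% interval -0.92 to 1.49, edgeR quasi-likelihood adjusted p = 0.931). Cd79b (ENSMUSG00000040592, chromosome 11, 106311341 to 106314762), its partner, had 56, 16, 61 and 163 counts in the HVCN1 null hearts, against 114, 33, 48 and 64 in the WT hearts. The same hearts were high and low as for Cd79a, and the log2 fold change was 0.30 (95% interval -0.97 to 1.56, edgeR quasi-likelihood adjusted p = 0.932). There were between 0.64 and 1.18 counts of Cd79b per count of Cd79a over the 8 hearts.

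The immunoglobulin constant regions carried most of the members' counts. Ighm (ENSMUSG00000076617, chromosome 12, 113418558 to 113422730), the heavy chain constant region of IgM, had 513, 360, 408 and 794 counts in HVCN1 null hearts 1 to 4, against 765, 392, 660 and 416 in WT hearts 5 to 8. Its means were 15.7 ± 5.24 and 15.7 ± 3.27 CPM, and the log2 fold change was -0.00 (SE 0.23, 95% interval -0.52 to 0.51, edgeR quasi-likelihood adjusted p = 0.999). This was the narrowest interval of the 9. Igkc (ENSMUSG00000076609, chromosome 6, 70726435 to 70726966), the kappa light chain constant region, had 200, 70, 208 and 330 counts in the HVCN1 null hearts, against 304, 99, 347 and 144 in the WT hearts. Here WT heart 7 and not heart 5 was the highest of its group, and the log2 fold change was 0.01 (95% interval -0.981 to 0.999, edgeR quasi-likelihood adjusted p = 0.999). Ighd (ENSMUSG00000104213, chromosome 12, 113406604 to 113416324), the constant region of IgD, which naive cells show beside IgM, had 96, 37, 97 and 236 counts in the HVCN1 null hearts, against 215, 61, 75 and 77 in the WT hearts. Above the other 6 hearts stood HVCN1 null heart 4 and WT heart 5, and the log2 fold change between the groups was 0.25 (95% interval -0.88 to 1.38, edgeR quasi-likelihood adjusted p = 0.936).

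The co-receptors and CD20 were as uneven between hearts. Cd22 (ENSMUSG00000030577, chromosome 7, 30865402 to 30880342) had 67, 20, 53 and 116 counts in HVCN1 null hearts 1 to 4, against 108, 32, 54 and 64 in WT hearts 5 to 8. Its log2 fold change was 0.10 (95% interval -0.95 to 1.14, edgeR quasi-likelihood adjusted p = 0.980), and it shares 479 exon bases (9.50%) with the antisense gene Gm29439. Cr2 (ENSMUSG00000026616, chromosome 1, 195136811 to 195176716), which encodes CD21, had 15, 3, 10 and 42 counts in the HVCN1 null hearts, against 14, 7, 12 and 25 in the WT hearts. Cr2 had the fewest counts of the 9, its highest WT value lay in heart 8, and the 3 counts of HVCN1 null heart 2 had a 95% Poisson interval of 0.619 to 8.77. Its log2 fold change was 0.30 (95% interval -1.17 to 1.77, edgeR quasi-likelihood adjusted p = 0.942), the widest interval of the 9. Ms4a1 (ENSMUSG00000024673, chromosome 19, 11249675 to 11266241), which encodes the surface protein CD20, had 35, 16, 14 and 71 counts in the HVCN1 null hearts, against 58, 21, 37 and 40 in the WT hearts. It had the lowest log2 fold change of the 9, at -0.14 (95% interval -1.18 to 0.90, edgeR quasi-likelihood adjusted p = 0.969).

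Pax5 (ENSMUSG00000014030, chromosome 4, 44524757 to 44710487), the factor that commits cells to the B lineage, had 62, 20, 22 and 113 counts in HVCN1 null hearts 1 to 4, against 91, 30, 36 and 55 in WT hearts 5 to 8. The same hearts, 4 and 5, were highest. The log2 fold change was 0.09 (95% interval -1.06 to 1.25, edgeR quasi-likelihood adjusted p = 0.983). On the opposite strand Pax5 shares 636 exon bases (7.18%) with 5730488B01Rik and 125 (1.41%) with the antisense gene Gm12462.

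The intervals set what these hearts could show. All 9 held 0, 6 reached above 1 on the log2 scale, and 2 held both -1 and 1, so that a difference of 1 on the log2 scale in either direction was within the error for Pax5 and Cr2. The exact permutation p of the difference in mean CPM lay between 0.629 and 1 (two-sided, 70 assignments of 8 hearts, smallest possible p 0.0286). The biological coefficient of variation that edgeR estimated, the spread between hearts beyond counting error, was 0.236 for Ighm, 0.607 for Cr2 and between these for the others. The median over all tested genes was 0.155.

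**Figure D2:**
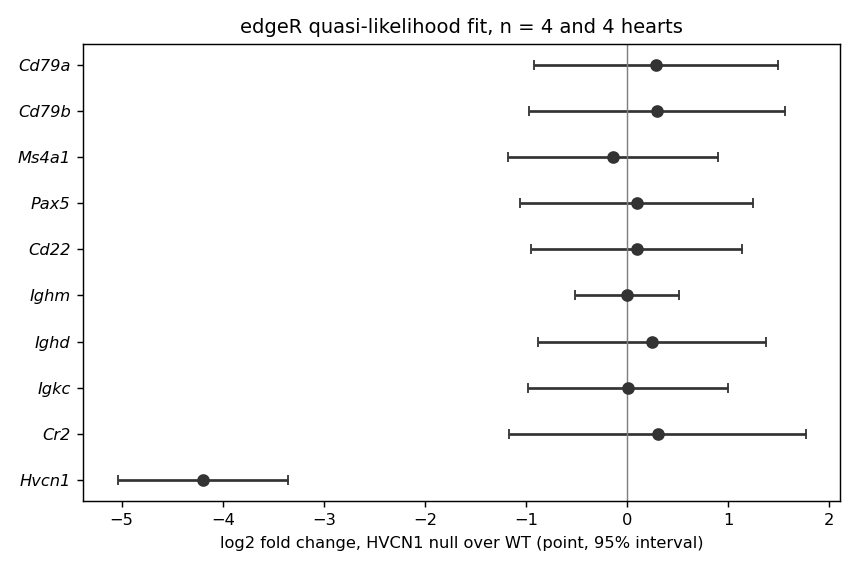
Log2 fold change (HVCN1 null over WT) of the 9 B lymphocyte genes and of Hvcn1, with the 95% interval from edgeR's quasi-likelihood fit (n = 4 and 4 hearts). The 9 points lie between -0.14 and 0.30 with intervals that hold 0, while that of Hvcn1 runs from -5.04 to -3.35.

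Levels of different genes were compared per kilobase of annotated exon (RPKM). In WT hearts the order was Igkc at 11.6 ± 5.17, Ighm at 8.34 ± 1.73, Ighd at 1.57 ± 0.880, Cd79a at 1.42 ± 0.820, Cd79b at 1.28 ± 0.597, Cd22 at 0.362 ± 0.153, Ms4a1 at 0.180 ± 0.0601, Pax5 at 0.170 ± 0.0771 and Cr2 at 0.0533 ± 0.0345 RPKM (SD, n = 4). Neighbours in this order lay within their SD of each other, except Ighm above Ighd, Cd79b above Cd22, Cd22 above Ms4a1 and Pax5 above Cr2. Hvcn1, at 0.632 ± 0.144 RPKM, fell between Cd79b and Cd22. The length used was the union of all annotated exons, which lowers the values of genes with long alternative ends.

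The members varied together from heart to heart. HVCN1 null heart 4 was the highest of its group for all 9, as it was for 23% of all tested genes, and HVCN1 null heart 2 was the lowest for all 9, against 20.2%. WT heart 6 was the lowest WT heart for all 9 (19% of all tested genes), and WT heart 5 the highest for 7 (28.3%), with Igkc highest in WT heart 7 and Cr2 in WT heart 8. The top pair of the 8 hearts was HVCN1 null heart 4 and WT heart 5 for 7 of the 9, which held for 3.68% of all tested genes. Over the 36 pairs of members, Pearson's r of log2 CPM across the 8 hearts lay between 0.604 and 0.981 with a median of 0.851. Without HVCN1 null hearts 2 and 4, the 2 farthest from the median, it lay between 0.0353 and 0.994 with a median of 0.568, so part of the likeness rested on those hearts. Genes of one library share its depth and content, and these values are a description.

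Markers of other cells moved with some of the same hearts. The erythrocyte markers summed to 1297, 1292, 3212 and 8389 CPM in HVCN1 null hearts 1 to 4, against 15224, 3018, 3949 and 5035 CPM in WT hearts 5 to 8. For 6 of these 7 markers the top pair was also HVCN1 null heart 4 and WT heart 5. In the atrial markers it was not: those hearts had 323 and 3257 CPM, and the highest sum was 8462 CPM in WT heart 7. The T lymphocyte markers summed to 27.4, 20.5, 26.4 and 28.9 CPM in the HVCN1 null hearts, against 33.7, 25.5, 25.6 and 30.8 CPM in the WT hearts. HVCN1 null heart 2 was thus the lowest and WT heart 5 the highest. Within the HVCN1 null group the range of the sum was 1.41-fold, where the 6 members other than immunoglobulin genes spanned 7.12-fold. Thy1 alone gave 13.7, 8.47, 11.6 and 9.04 CPM of the sums in HVCN1 null hearts 1 to 4. For 4 of the 16 tested T lymphocyte markers the top pair was HVCN1 null heart 4 and WT heart 5, against 3.68% of all tested genes. HVCN1 null heart 4 was the highest of its group for 11 of the 16, against 23%. The part of blood in the members' values was not tested.

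**Figure D3:**
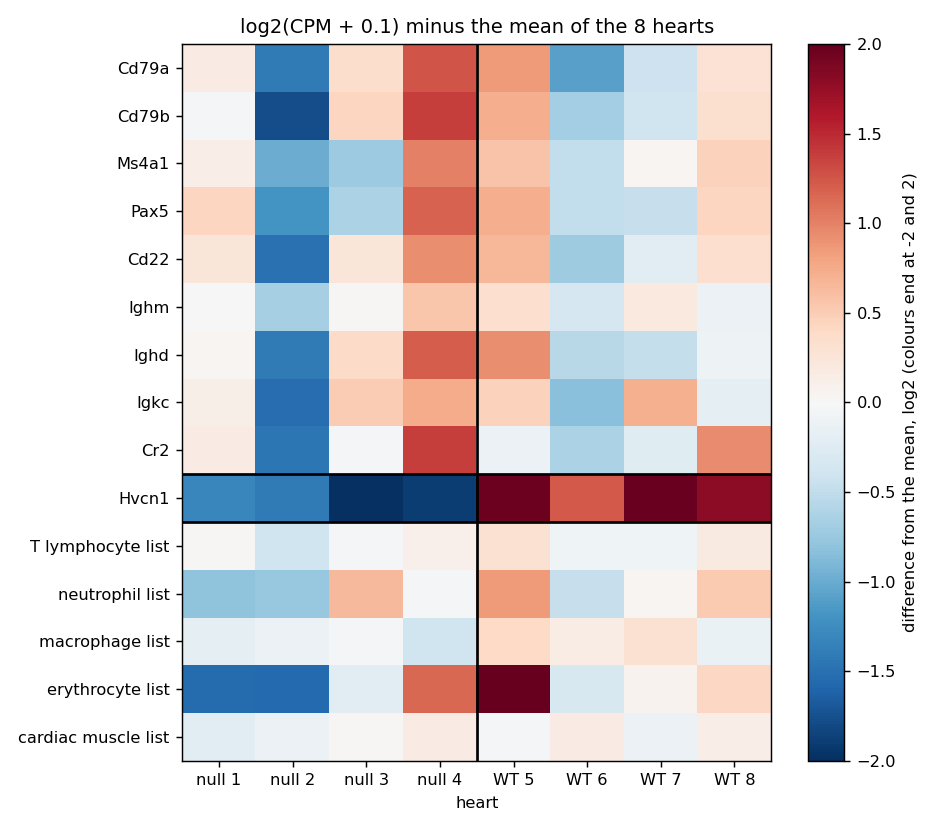
Difference of log2(CPM + 0.1) from the mean of the 8 hearts, for the 9 B lymphocyte genes, Hvcn1 and the summed CPM of 5 marker lists in each heart (red higher, blue lower, colours ending at -2 and 2). By CPM 7 of the 9 members are highest in HVCN1 null heart 4 and WT heart 5, and all 9 are lowest in HVCN1 null heart 2. The erythrocyte sum is highest in the same pair of hearts, and Hvcn1 divides the groups.

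Among the 10 tested genes whose log2 CPM was most like that of the summed members over the 8 hearts were Lrrc36 (r = 0.978), Arhgap45 (r = 0.967), Cacna1i (r = 0.954), Lck (r = 0.944), Gimap3 (r = 0.942), Cxcr5 (r = 0.938), Fcer2a (r = 0.919), Rcc1 (r = 0.917) and Lef1 (r = 0.917). Over 14787 genes the median r was -0.0203 and the 95th percentile 0.575. Without HVCN1 null hearts 2 and 4 the 10 values lay between 0.748 and 0.982, and the 95th percentile was 0.694. Cxcr5, the receptor that leads B lymphocytes into follicles, had 23, 6, 13 and 43 counts in HVCN1 null hearts 1 to 4, against 29, 7, 18 and 9 in WT hearts 5 to 8. HVCN1 null heart 4 and WT heart 5 were its highest too. Lck, which is in the list of T lymphocyte markers, had 19, 15, 20 and 50 counts in the HVCN1 null hearts, against 40, 16, 32 and 23 in the WT hearts. By CPM the same pair of hearts was its highest, so the likeness was not limited to B lymphocyte genes.

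Hvcn1 and the B lymphocyte genes were next compared over the 4 WT hearts, where Hvcn1 is intact. Hvcn1 stood at 2.58, 1.51, 2.62 and 2.29 CPM in WT hearts 5 to 8, and the summed members at 45.8, 21.7, 35.0 and 32.3 CPM. WT heart 6 was the lowest for both, with 67.2% of the WT mean for Hvcn1 and 64.5% for the members, and it stayed the lowest for both without scaling. The 95% Poisson interval of its 49 Hvcn1 counts was 36.3 to 64.8. The other 3 hearts lay at 115%, 116% and 102% of the WT mean for Hvcn1 and at 136%, 104% and 95.8% for the members, in WT hearts 5, 7 and 8. The WT hearts thus held between 5.63 and 7.48 Hvcn1 counts per 100 member counts.

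Against the members other than immunoglobulin genes the ratio varied more. The 6 members other than immunoglobulin genes summed to 13.3, 4.66, 6.37 and 10.8 CPM in WT hearts 5 to 8, that is 152%, 53.1%, 72.5% and 123% of the WT mean. WT heart 7, the highest for Hvcn1, was the third for these. Per 100 Cd79a counts there were 71.8, 175, 183 and 95.8 Hvcn1 counts in WT hearts 5 to 8. The highest WT heart exceeded the lowest 1.73-fold for Hvcn1, 2.11-fold for the 9 members and 2.86-fold for the 6 without immunoglobulin. Hvcn1 ordered the WT hearts 7, 5, 8, 6. Igkc alone among the 9 had that order, as did 3 of the 18 macrophage markers and 5.06% of all tested genes. In other lists, 3 of 4 tested adipocyte markers and 2 of 9 tested MHC class II genes had it too. Phagocytes also express Hvcn1, and the 18 macrophage markers stood at 115%, 97.0%, 108% and 80.0% of their WT mean in hearts 5 to 8, with WT heart 8 the lowest. The summed 13 neutrophil markers stood at 144%, 58.3%, 82.7% and 115%, with WT heart 6 the lowest. The T lymphocyte and erythrocyte sums were also lowest in WT heart 6, at 88.4% and 44.3% of their WT means. WT heart 6 was the lowest for 4 of the 18 macrophage markers, 3 of 6 tested neutrophil markers and 8 of 16 tested T lymphocyte markers. The number was 6 of 7 for erythrocyte markers, 3 of 4 for tested adipocyte markers and 0 of 8 for cardiac muscle markers. Over all tested genes the share was 19%. With 4 WT hearts no correlation was computed, and which cells gave the Hvcn1 counts was not tested.

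**Figure D4:**
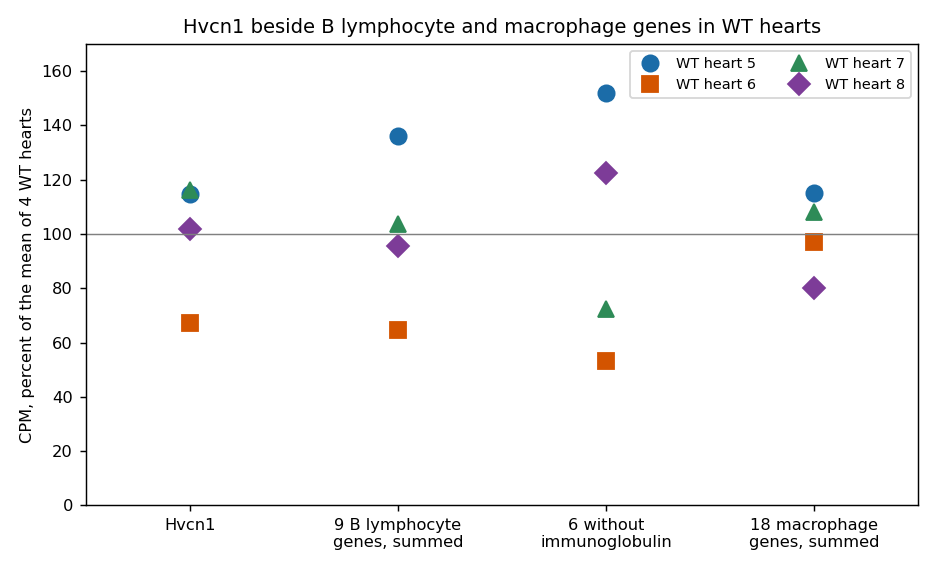
CPM in each WT heart as a percentage of the mean of the 4 WT hearts, for Hvcn1, the sum of the 9 B lymphocyte genes, the sum of the 6 without immunoglobulin genes and the sum of 18 macrophage markers. WT heart 6 is lowest in the first 3 columns, at 67.2%, 64.5% and 53.1%, and WT heart 8 in the fourth, at 80.0%. The neutrophil sum, not drawn, was also lowest in WT heart 6, at 58.3%.

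In HVCN1 null hearts 1 to 4 the members summed to 33.5, 15.2, 35.7 and 57.4 CPM, and Hvcn1 stood at 0.180, 0.160, 0.0380 and 0.0847 CPM. With 2034 member counts, HVCN1 null heart 4 had 3 Hvcn1 counts.

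The ratio of the immunoglobulin genes to Cd79a was read heart by heart. There were 7.03, 14.4, 6.18 and 4.70 Ighm counts per Cd79a count in HVCN1 null hearts 1 to 4, against 5.39, 14, 12.2 and 5.86 in WT hearts 5 to 8. The ratio was highest in HVCN1 null heart 2 and WT heart 6, the hearts with the fewest Cd79a counts of their groups, and WT heart 7 came next. For Igkc the ratio was 2.74, 2.80, 3.15 and 1.95 in the HVCN1 null hearts, against 2.14, 3.54, 6.43 and 2.03 in the WT hearts, so WT heart 7 stood highest. For Ighd it stayed between 1.08 and 2.18 in all 8 hearts.

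Of the other classes, Igha, the constant region of IgA, had 76, 11, 73 and 16 counts in HVCN1 null hearts 1 to 4, against 94, 40, 160 and 33 in WT hearts 5 to 8. Jchain, which joins IgA and IgM into polymers, had 22, 5, 18 and 17 counts in the HVCN1 null hearts, against 10, 5, 45 and 10 in the WT hearts. WT heart 7 was the highest WT heart for both, as for Igkc. Ighg2c, an IgG constant region (chromosome 12, 113285325 to 113288932), had 230, 214, 0 and 225 counts in the HVCN1 null hearts, against 289, 214, 249 and 324 in the WT hearts. HVCN1 null heart 3 thus had no Ighg2c count, with 0.114 CPM as the level of 3 counts there, and the other 7 hearts stood at least 50.2-fold higher, at 5.72 CPM or more. It was the only gene of 39056 with at most 1 count in 1 heart and at least 100 in each of the others, a search made after its values were seen. The same heart had 408 Ighm, 208 Igkc and 73 Igha counts. Between the groups Ighg2c had a log2 fold change of -0.71 (edgeR quasi-likelihood adjusted p = 0.832). Ighg1, Ighg2b and Ighg3 had 2, 6 and 14 counts over the HVCN1 null hearts and 6, 50 and 2 over the WT hearts, with 40 of the 50 Ighg2b counts in WT heart 7, and Ighe had none. The lambda constant regions Iglc1, Iglc2 and Iglc3 had 14, 42 and 48 counts over the HVCN1 null hearts and 29, 46 and 56 over the WT hearts, and the counts of Iglc2 and Iglc3, which are near-identical copies, are uncertain.

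**Figure D5:**
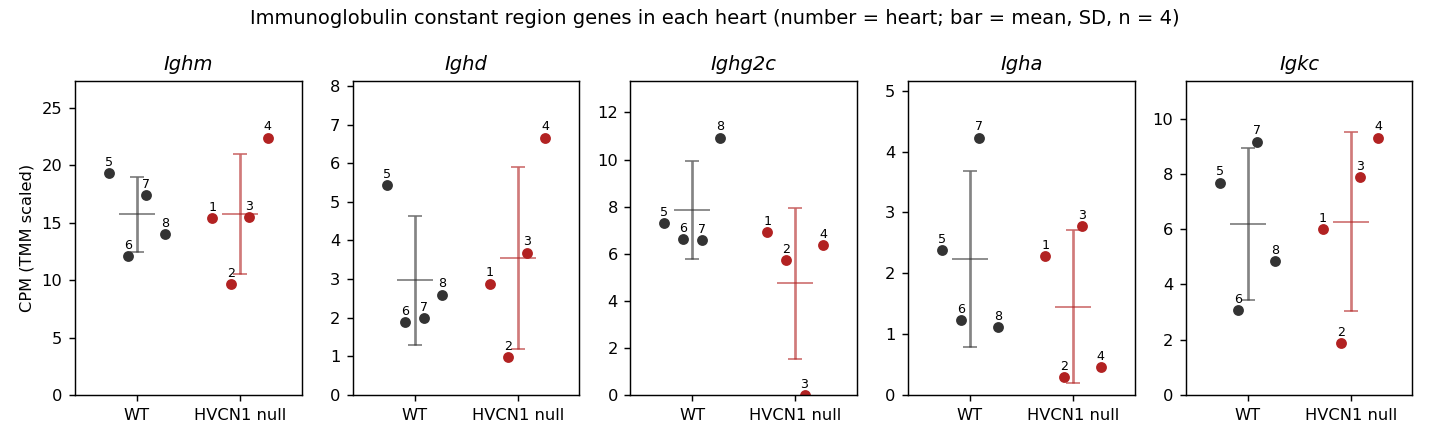
CPM (TMM scaled) of 5 immunoglobulin constant region genes in each heart, with the mean and SD of each group. Ighg2c is at 0 in HVCN1 null heart 3 and between 5.72 and 10.9 CPM in the other 7 hearts, while Ighm, Ighd and Igkc are highest in HVCN1 null heart 4.

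Counts on variable segments were spread over many segments. Of 183 heavy chain segments 73 had counts, 306 in all, and of 160 kappa segments 81 had counts, 789 in all. In HVCN1 null heart 4 there were 62 heavy and 162 kappa counts on 43 and 56 segments, and in heart 2 of that group 16 and 46 counts on 8 and 25 segments. WT heart 7 had 81 heavy and 159 kappa counts, on 28 and 38 segments, and so more heavy counts on fewer segments than HVCN1 null heart 4. Segments share sequence, so the counts of single segments are uncertain.

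Other genes of the B lineage were taken from lists. Of 23 genes of antigen receptor signalling and its co-receptors, all were tested, 9 higher and 14 lower in HVCN1 null hearts, with 0 called by edgeR's quasi-likelihood test, 1 at an unadjusted p under 0.05 and a median log2 fold change of -0.11. The gene with the most counts was Cd81, a tetraspanin found on most cells, at 329.8 ± 24.1 CPM for HVCN1 null and 320.3 ± 16.9 CPM for WT (SD, n = 4 each). Ifitm3, an interferon-induced membrane protein, stood at 60.9 ± 8.89 and 58.2 ± 10.02 CPM. Syk, the kinase that docks on the CD79 pair and is also used by myeloid cells, stood at 33.1 ± 5.62 and 35.9 ± 4.42 CPM. Among 13 B lineage transcription factors 8 were higher, 5 lower and 0 called. At an unadjusted p under 0.05 there were 3, against 11% of all tested genes, and the median of the 13 was 0.03. Tcf3, which has the most counts of these, stood at 35.8 ± 2.32 and 34.7 ± 1.92 CPM, and Foxp1 at 25.7 ± 2.34 and 25.4 ± 2.92 CPM. Bcl11a, named here after its values were seen, was the only one of the 13 whose groups lay apart, as they did in 7.06% of all tested genes. It stood at 4.73 ± 0.253 CPM for HVCN1 null and 2.95 ± 0.705 CPM for WT, a log2 ratio of 0.68 (SE 0.18, edgeR quasi-likelihood adjusted p = 0.125, exact permutation p = 0.0286). That permutation p is the smallest possible and is fixed once the groups lie apart, so it adds nothing to the choice. It was called by the likelihood ratio test and DESeq2 and not by the exact test or voom. Bcl11a did not follow the members, with 4.89 CPM in HVCN1 null heart 2 and 4.91 CPM in HVCN1 null heart 4.

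Of 15 genes of B lymphocyte homing, survival and costimulation, 12 were tested (2 higher, 10 lower), 0 called and 1 at an unadjusted p under 0.05, and the median was -0.19. Cd83, an activation marker also found on dendritic cells, stood at 4.92 ± 0.155 CPM for HVCN1 null and 5.82 ± 1.24 CPM for WT. Of 17 plasma cell genes, 9 were tested, 2 higher and 7 lower, with 0 called, 0 at an unadjusted p under 0.05 and a median of -0.12. Xbp1, the secretory factor with the most counts among them and one used by many cells, stood at 53.9 ± 6.23 and 56.5 ± 5.01 CPM. Of 11 early B and pre-B genes 4 were tested and 0 called, with 0 at an unadjusted p under 0.05 and a median of 0.04. Cd93, which endothelium also uses, had the most counts of these, at 133.8 ± 25.2 CPM for HVCN1 null and 135.2 ± 11.6 CPM for WT. The surrogate light chain genes Vpreb2 and Igll1 had no count. Of 9 germinal centre and B-1 genes 4 were tested and 0 called, with 0 at an unadjusted p under 0.05 and a median of -0.02. Bcl6, the germinal centre repressor, stood at 24.6 ± 6.69 and 25.2 ± 3.22 CPM. None of these 6 B lineage lists had a call by edgeR's exact test or voom, and Bcl11a was the only call in them by the likelihood ratio test and DESeq2. MHC class II genes, through which B lymphocytes and other cells present antigen, had 9 of 10 tested, 1 above 0 and 8 below, and -0.59 as the median. Cd74, the invariant chain, stood at 120.2 ± 16.0 CPM for HVCN1 null and 158.5 ± 53.6 CPM for WT. Of these 0 were called and 5 were at an unadjusted p under 0.05, against 11% of all tested genes. DESeq2 called 3 of the 9, against 3.15% of all genes, and edgeR's exact and likelihood ratio tests called 2 each, against 2.48% and 2.54%, while voom called 0.

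Markers of other cells that a heart sample can hold were read from the same edgeR fit, which called 0 in each of the lists that follow. Of 18 T lymphocyte markers 16 were tested, with 7 higher, 9 lower, 1 at an unadjusted p under 0.05 and a median of -0.17. Immature thymocyte markers had 4 of 9 tested, 0 at an unadjusted p under 0.05 and a median of 0.22, and none of the 8 natural killer cell markers was tested, their sum lying between 0.695 and 2.78 CPM. All 18 macrophage markers had a log2 fold change below 0, with -0.35 as the median and 7 of them at an unadjusted p under 0.05, against 11% of all tested genes. Their sum was 359 to 462 CPM in HVCN1 null and 432 to 622 CPM in WT hearts, and DESeq2 and the exact and likelihood ratio tests of edgeR each called 3 of the 18, Ccr2, Cx3cr1 and Lyz2, against 3.15%, 2.48% and 2.54% of all genes, while voom called 0. Neutrophil markers had 6 of 13 tested, 1 higher and 5 lower, 0 at an unadjusted p under 0.05, a median of -0.43 and sums of 9.81 to 27.2 CPM in HVCN1 null and 12.5 to 31.1 CPM in WT hearts. The 5 tested eosinophil and mast cell markers of 9 were all higher, with a median of 0.40. Of the 5, 2 were at an unadjusted p under 0.05, against 11% of all tested genes. The 7 erythrocyte markers were all lower, with a median of -1.02 and 2 at an unadjusted p under 0.05, against the same 11%. Of 7 lymphoid stroma and follicular dendritic markers in the counts 5 were tested, with 1 at an unadjusted p under 0.05 and a median of -0.22, and the defining lymph node vessel genes Glycam1 and Madcam1 had 0 and 3 counts over all 8 hearts. The 5 tested atrial markers of 6 were all lower with a median of -0.44, the 4 tested adipocyte markers of 6 were all lower with a median of -0.69, and neither list had a gene at an unadjusted p under 0.05. The 8 cardiac muscle markers had a median of -0.05 and 1 at an unadjusted p under 0.05, Actc1, which DESeq2 called. By these other tests no further list of this kind had a call. The part of any of these in the members' values was not tested.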

How the data were processed

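RNA was taken from 4 HVCN1 null and 4 WT mouse hearts. Per the methods, the authors made poly-A libraries and paired reads (2 × 50), used STAR for alignment and featureCounts for counting, and deposited raw counts of each gene in each heart, not normalized. The versions are not given in the sources used here. The methods text names a human genome, the labels GRCm38, and 38872 of 39056 identifiers (99.5%) were matched to GENCODE M21 on GRCm38. The authors' statistics were not used.

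CPM values were computed with TMM scaling (edgeR 4.0.16, R 4.3.3). Genes kept by filterByExpr (14796) were tested with edgeR's quasi-likelihood test and Benjamini-Hochberg adjustment over all of them, at an adjusted p under 0.05. Single genes were also tested by two-sided exact permutation. Genes named are the members, Hvcn1, the genes of each list that were called or otherwise had the most counts, and the 10 genes with the highest Pearson r to the summed members, with any other said to be chosen after its values were seen or given as a count. The members and lists were chosen with earlier results of these data known. Alternatives were RLE or no scaling, a filter at a CPM above 1 in 4 hearts or none, DESeq2 1.42.0, voom (limma 3.58.1), the exact and likelihood ratio tests of edgeR, log2 CPM, and each heart left out. The fits were tested on simulated data with known changes. The simulated spread followed the trend over all genes, so this does not show what the fits would find in genes as variable as the members. Python 3.11.15, pandas 2.3.3, numpy 2.4.6, scipy 1.17.1 and matplotlib 3.10.9 were used. Total counts were 25851255 to 38874640 per heart, and intervals on counts cover counting error only. No batch is given by the labels. Hearts are separate animals, and no 2 libraries agreed within sampling noise. Results for some genes are not reported here, and counts over lists and over all genes include them.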

Additional observations from a re-analysis of the deposited data

Results flagged for a closer look

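Of 76 groups of 4 hearts examined for 39 genes and sums, 3 held 1 heart far from the others, where chance gives about 1 in 20. The 39 were a selection that did not take in every gene of the lists. The number flagged depends on that selection, so it cannot be weighed against the share by chance. All 3 flagged values lay in WT heart 8. Ighg2c stood at 10.9 CPM there and at 6.58 to 7.31 CPM in the other WT hearts. The rule did not flag Ighg2c in the HVCN1 null group, although heart 3 had 0 CPM and the others 5.72 to 6.90 CPM. Rag1, the recombinase of developing lymphocytes, stood at 1.01 CPM, with 0 to 0.0618 CPM in the other WT hearts, and 30 of its 33 counts over all 8 hearts lay in that heart. Dntt, which adds bases at rearranging joints, stood at 0.439 CPM, with 0 to 0.0309 CPM in the other WT hearts, and 13 of its 14 counts lay there. None of the 9 B lymphocyte genes was flagged, and for the summed members WT heart 8 lay at 95.8% of the WT mean.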

How the results depend on the processing

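No member was called under any of the 16 alternatives. Over 143 fits of a member the lowest adjusted p was 0.617 and the lowest unadjusted p 0.104, and Cr2 was left out by the filter at a CPM above 1. The number of DEGs was 367 with edgeR's exact test, 376 with its likelihood ratio test and 466 with DESeq2, and lay between 71 and 152 with 1 heart left out, at 71, 92 and 104 without WT hearts 6, 5 and 8 and at 99 and 103 without HVCN1 null hearts 1 and 3. Hvcn1 was called in all 16, with a log2 fold change of -4.45 to -3.96.

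The members' direction was not stable. The log2 fold change of Ighm was 0.01044 with RLE scaling, 0.01868 unscaled, 0.004672 without a filter and 0.01156 with DESeq2, and its CPM difference unscaled was 0.2168. With voom it was -0.07131 for Cd79b, -0.1155 for Pax5, -0.1049 for Cd22, -0.1659 for Igkc and -0.0538 for Cr2. On log2 CPM the difference was -0.1106 for Pax5, -0.04579 for Cd22 and -0.08205 for Igkc. The cause was not tested. With 1 heart left out the log2 fold change lay between -0.2295 and 0.7132 for Cd79a, -0.3365 and 0.6465 for Cd79b, -0.7276 and 0.1209 for Ms4a1, -0.4875 and 0.3903 for Pax5, -0.2824 and 0.4143 for Cd22, -0.2257 and 0.1752 for Ighm, -0.2597 and 0.734 for Ighd, -0.2532 and 0.3161 for Igkc and -0.519 and 0.8184 for Cr2. The CPM difference lay between -0.2813 and 1.087, -0.3577 and 1.034, -0.4409 and 0.08489, -0.432 and 0.4535, -0.3073 and 0.6064, -2.23 and 2.036, -0.4577 and 1.434, -0.9669 and 1.546 and -0.1294 and 0.2392 for the same genes in that order. The ratio of summed CPM lay between 0.8345 without HVCN1 null heart 4 and 1.253 without HVCN1 null heart 2. No paired analysis was possible because no replicate number occurs in both groups.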
